A study of Mus musculus with 8 samples.

Results

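The chromatin around 3 genes of the interneurons that arise in the caudal ganglionic eminence, Prox1, Sp8 and Htr3a, was examined in the embryonic mouse forebrain by single-nucleus ATAC-seq, which counts the sites where a transposase can cut open DNA. Members were the peaks within 50 kb of the body of each gene on GRCm38, merged over the 8 samples where they overlapped. This gave 59 elements of 292532 merged regions in the series, of which 35 belonged to Prox1, 8 to Sp8 and 16 to Htr3a. Only 16 of the 59 had a peak in all 8 samples, of 68274 such regions in the series, and these 16 entered the tests. Elements are numbered along the chromosome within each locus, so that Prox1_e24 is element 24 of Prox1. All samples were wild type, with no transgene or treatment named in the labels, and came from the brain at E12.5, except for replicate 2 of the cortex, which is labelled E14.5. Each of 4 regions had 2 samples: cortex (CTX), medial eminence (MGE), lateral eminence (LGE) and caudal eminence (CGE). The labels do not say whether replicates came from separate embryos or litters, so p-values measure the spread between these samples only.

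The ganglionic eminences of the ventral forebrain produce GABAergic neurons, with MGE and CGE giving rise to most cortical interneurons and LGE to striatal projection neurons and olfactory bulb interneurons. Prox1 encodes a homeodomain transcription factor that is kept in CGE-derived cortical interneurons and is needed for their migration and circuit integration. Sp8 encodes a zinc finger transcription factor of the Sp family, which bind GC-rich DNA, and is known from dorsal LGE and CGE, from olfactory bulb interneurons and from the patterning of the cortical primordium. Htr3a encodes a subunit of the serotonin-gated cation channel, the receptor by which CGE-derived interneurons are commonly marked. An accessible promoter is permissive for transcription and does not measure it.

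Prox1 (ENSMUSG00000010175.13) lies on chromosome 1 at 190118035-190170714 on the minus strand. Sp8 (ENSMUSG00000048562.7) lies on chromosome 12 at 118846329-118852576 on the plus strand, and Htr3a (ENSMUSG00000032269.8) on chromosome 9 at 48899213-48911099 on the minus strand. The start-site elements were Prox1_e24 (190167598-190175897, 8300 bp, also overlapping the noncoding genes Prox1os and Gm28172), Sp8_e05 (118833713-118851506, 17794 bp) and Htr3a_e11 (48910448-48911667, 1220 bp). These widths are of peaks merged over the samples. Prox1_e24 was 1 broad peak in every sample, covering 7559 to 8270 bp. Sp8_e05 was 1 peak in CTX replicate 2 only and 3 to 6 separate peaks in each other sample, covering 9197 to 16725 bp over all samples. Htr3a_e11 was 1 narrow peak in every sample, of 611 to 1212 bp.

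The 2 promoters below lie within the start-site elements of the transcription factor genes and are given as 300-base sequences of RefSeq on GRCm38.p6, written in the direction of the gene. RefSeq holds 2 start sites for Prox1 and 3 for Sp8, and the first listed of each is shown, at chr1:190170778-190171077 on the minus strand and chr12:118846079-118846378 on the plus strand. Capitals mark every match, on either strand, to GGGCGG (GC box), TAATTA (homeodomain core), AGGTCA (nuclear receptor half-site) and the E-boxes CAGATG and CAGCTG.
Prox1 promoter: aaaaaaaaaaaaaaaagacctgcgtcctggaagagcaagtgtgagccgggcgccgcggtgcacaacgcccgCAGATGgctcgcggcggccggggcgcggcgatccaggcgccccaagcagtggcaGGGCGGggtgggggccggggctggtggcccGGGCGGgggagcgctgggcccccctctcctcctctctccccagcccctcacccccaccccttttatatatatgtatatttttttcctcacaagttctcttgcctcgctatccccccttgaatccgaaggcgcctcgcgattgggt
Sp8 promoter: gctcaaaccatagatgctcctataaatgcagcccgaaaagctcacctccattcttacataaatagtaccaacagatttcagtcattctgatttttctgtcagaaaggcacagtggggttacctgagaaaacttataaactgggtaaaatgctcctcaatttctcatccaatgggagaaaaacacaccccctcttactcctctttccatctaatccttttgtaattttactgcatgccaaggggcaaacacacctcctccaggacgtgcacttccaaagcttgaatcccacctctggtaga
The Prox1 promoter held 2 matches to GGGCGG and 1 to CAGATG and was 64.3% G and C. The Sp8 promoter shown held none of the 5 motifs and was 43% G and C, but the other Sp8 promoters were 61% and 53% G and C and held 1 GGGCGG and 1 AGGTCA, and 1 TAATTA, respectively. The other Prox1 promoter was 57.3% G and C with 1 GGGCGG. Over all 32851 RefSeq promoters, 35.7% held GGGCGG, 17.2% CAGATG, 16.3% CAGCTG, 16.3% AGGTCA and 5.29% TAATTA, and the median G and C content was 52.7%.

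The next 5 sequences are the 300 bases around the centre of the stretch that peaks of all 8 samples shared, read from GRCm38.p6 on the plus strand, with the same motifs in capitals. They are 5 of the elements described one by one in the comparisons, shown as examples for Prox1 and Htr3a and chosen after their values were seen. Prox1_e19 (chr1:190149156-190149455), Prox1_e20 (chr1:190155913-190156212) and Prox1_e21 (chr1:190159663-190159962) are windows in introns of Prox1. Htr3a_e12 (chr9:48916406-48916705) is intergenic, and Htr3a_e16 (chr9:48961242-48961541) is in an intron of Htr3b, the gene of the neighbouring receptor subunit. None of the 5 windows overlaps an annotated exon.
Prox1_e19: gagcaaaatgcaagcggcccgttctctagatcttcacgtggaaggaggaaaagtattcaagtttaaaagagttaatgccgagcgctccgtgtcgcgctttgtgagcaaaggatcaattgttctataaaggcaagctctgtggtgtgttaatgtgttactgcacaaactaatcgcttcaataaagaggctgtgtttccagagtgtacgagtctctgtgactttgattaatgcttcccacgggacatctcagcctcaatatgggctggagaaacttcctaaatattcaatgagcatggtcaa
Prox1_e20: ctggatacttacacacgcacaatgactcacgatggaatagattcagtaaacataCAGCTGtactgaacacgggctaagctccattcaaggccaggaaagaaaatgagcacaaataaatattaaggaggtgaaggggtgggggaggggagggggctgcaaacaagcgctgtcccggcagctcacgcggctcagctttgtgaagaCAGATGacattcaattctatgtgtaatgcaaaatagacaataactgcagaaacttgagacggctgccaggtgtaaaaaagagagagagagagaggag
Prox1_e21: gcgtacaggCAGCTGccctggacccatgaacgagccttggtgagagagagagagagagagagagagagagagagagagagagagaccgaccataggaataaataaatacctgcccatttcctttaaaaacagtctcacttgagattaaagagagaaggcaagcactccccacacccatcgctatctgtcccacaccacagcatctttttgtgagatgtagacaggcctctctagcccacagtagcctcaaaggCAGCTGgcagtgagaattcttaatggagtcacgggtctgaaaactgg
Htr3a_e12: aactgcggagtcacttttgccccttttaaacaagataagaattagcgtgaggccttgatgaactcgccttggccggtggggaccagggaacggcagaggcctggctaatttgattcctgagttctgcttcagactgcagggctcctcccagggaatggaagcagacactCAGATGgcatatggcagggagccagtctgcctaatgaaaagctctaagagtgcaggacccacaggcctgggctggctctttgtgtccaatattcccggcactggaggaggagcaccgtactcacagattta
Htr3a_e16: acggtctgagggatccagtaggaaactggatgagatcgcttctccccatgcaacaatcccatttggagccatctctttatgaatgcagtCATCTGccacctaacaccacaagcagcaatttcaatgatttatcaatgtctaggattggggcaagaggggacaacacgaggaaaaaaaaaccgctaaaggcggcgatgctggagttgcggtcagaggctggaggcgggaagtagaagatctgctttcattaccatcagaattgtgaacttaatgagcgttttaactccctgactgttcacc
Of the 13 shared elements away from a start site, 5 held CAGATG, 3 held CAGCTG, 2 held AGGTCA, 1 held GGGCGG and 0 held TAATTA in this window. Among the windows of all 68274 shared regions the shares were 22.8%, 23.7%, 13.1%, 20.8% and 10.6%. A match of 6 letters is a description of the sequence and was not tested for binding.

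The libraries held 3465 to 6845 nuclei, 39253 in all, with 77387940 to 138873845 counts in peaks per sample and a median of 14584 to 22209.5 counts per nucleus. The 68274 shared regions, whose counts are the denominator of the element levels, took 77.8% of the counts of CTX replicate 1 and 87.0% to 95.1% of the other libraries. In every region replicate 1 had more odd counts (9.54% to 10.4% of entries) than replicate 2 (5.17% to 5.85%). Pairs of libraries shared 15 to 56 barcodes, at most 1.17% of a library. The eminence labels held at the MGE genes Nkx2-1 (log2 fold change of -3.67 ± 0.23 (SE) for CGE against MGE, edgeR adjusted p = 0.00476) and Lhx6 (-2.22 ± 0.17, edgeR adjusted p = 0.0103). The CTX libraries differed from each other in makeup. In the library labelled CTX replicate 1, 95.9% of nuclei fell in clusters called glutamatergic neuron-like from their markers, against 9.89% of the library labelled CTX replicate 2, where 72.4% formed a cluster without a name (c6) and 10.9% another (c11, led by Folr1, Wnt3a and Rspo1). The split depended on the clustering: at Leiden resolution 1 the glutamatergic neuron-like share of CTX replicate 1 was 76.4%, and 798 of its nuclei (19.4%) were called progenitor-like, against 4 in CTX replicate 2. Whether the labelled ages belong to these libraries could not be settled, so no age is read from them. Age, cell makeup and library cannot be told apart within CTX, and each edgeR call of a member in CTX is given with and without each of these libraries. The eminence comparisons used the 6 eminence samples alone. Makeup also differed between the eminences. Glutamatergic neuron-like nuclei were 20.7% and 26.9% of the CGE libraries, 14.02% and 10.6% of LGE and 0.278% and 1.82% of MGE. These shares also depended on the clustering. At Leiden resolution 1 they were 13.03% and 11.04% of CGE, 10.99% and 5.87% of LGE and 0.146% and 0.462% of MGE. An unnamed cluster then held 7.10% and 14.7% of CGE and 2.77% and 4.55% of LGE. GABAergic neuron-like nuclei were 39.9% and 38.7% of CGE, 36.3% and 33.6% of LGE and 46.4% and 54.2% of MGE. Levels and log2 fold changes of pooled samples were not adjusted for this makeup, and its part in them was not tested.

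At the start sites no member was called higher in CGE than in MGE or LGE. At the Prox1 start site the level was 84.1 and 86.6 CPM in CGE (counts in the element scaled to the library's counts in the 68274 shared regions), 117 and 91.4 in MGE, 78.9 and 81.0 in LGE, and 69.6 and 67.0 in CTX. The CGE samples lay below both MGE samples and above both LGE samples by narrow margins. The fitted log2 fold change was -0.36 ± 0.17 (SE) for CGE against MGE (edgeR quasi-likelihood test, Benjamini-Hochberg adjusted p = 0.254) and 0.04 ± 0.17 for CGE against LGE (edgeR adjusted p = 0.987).

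At the Sp8 start site the level was 77.2 and 91.1 CPM in CGE, 98.6 and 92.5 in MGE, 92.6 and 108 in LGE, and 110 and 207 in CTX. The CGE samples were the lowest 2 of the 8, and CTX replicate 2 stood apart from the other 7 samples. Neither eminence difference was called, with a log2 fold change of -0.25 ± 0.18 against MGE (edgeR adjusted p = 0.442) and -0.30 ± 0.18 against LGE (edgeR adjusted p = 0.596). The element is built of 1 peak in CTX replicate 2 and of 3 to 6 peaks in the other samples, covering 9197 to 16725 bp, so the count also follows how much of the domain was called as peak. Per covered kilobase it was 7.80 and 7.13 CPM in CGE against 7.88 and 5.85 in MGE, and with the covered-length offset CGE against MGE turned to 0.041. The median of that offset fit over all regions was -0.10.

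In the main fits the Htr3a start site was the start site called between regions by edgeR, higher in CTX. It had 5.86 and 2.22 CPM in CGE, 9.53 and 7.16 in MGE, 5.00 and 2.77 in LGE, and 20.5 and 30.5 in CTX. Both CTX samples lay above all 6 eminence samples, and the CGE and LGE ranges overlapped. CTX exceeded the mean of the eminences by a log2 fold change of 2.40 ± 0.36 (edgeR adjusted p = 0.00793), by 2.07 without CTX replicate 2 (edgeR adjusted p = 0.00819) and by 2.69 without CTX replicate 1 (edgeR adjusted p = 0.00209). Between CGE and MGE the log2 fold change was -1.15 ± 0.44 (edgeR adjusted p = 0.165), and between CGE and LGE -0.01 ± 0.44 (edgeR adjusted p = 0.999). Here and below, a sample's level pools its nuclei, so fewer open nuclei and less signal per nucleus cannot be told apart from it alone.

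**Figure D1:**
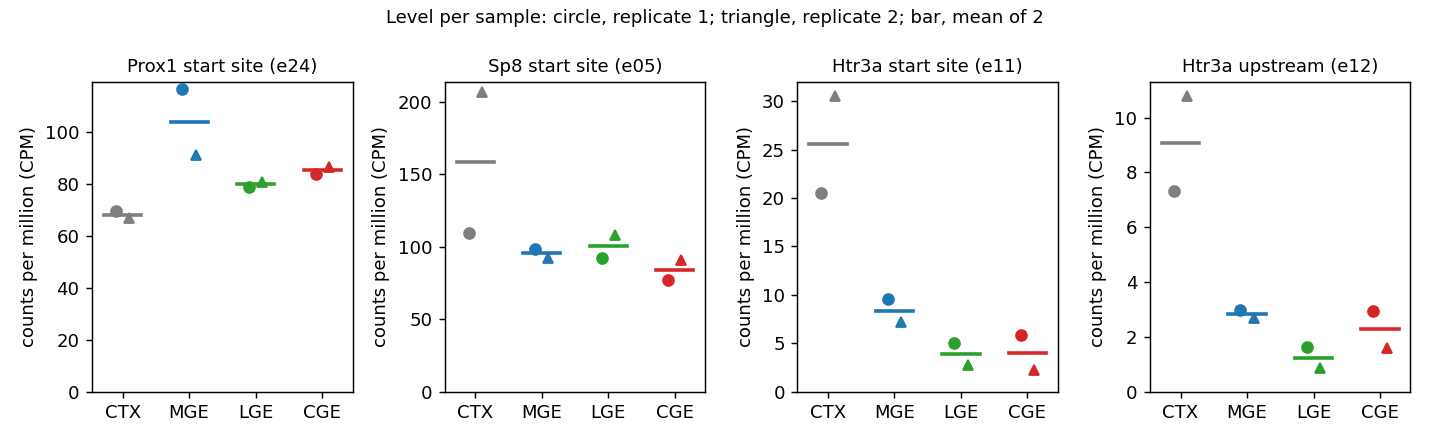
Level in CPM on linear axes from 0 of the start-site elements of Prox1, Sp8 and Htr3a and of the Htr3a upstream element e12, by region, with a circle for replicate 1, a triangle for replicate 2 and a bar for the mean of 2. The CGE samples do not exceed MGE at any of the 3 start sites, and both CTX samples exceed all 6 eminence samples at both Htr3a elements.

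The start sites were also compared by the share of nuclei with a count. Nuclei were thinned to 2500 fragments drawn from all peaks of their sample, so that deeper nuclei did not score more often. CPM is scaled to the shared regions instead, which took 77.8% of counts in CTX replicate 1 and 87.0% to 95.1% elsewhere. Relative to CPM, thinned shares are therefore lowered most in CTX replicate 1. After thinning, the Prox1 start site had a count in 16.3% and 16.3% of CGE nuclei, 21.8% and 17.1% of MGE, 15.7% and 15.9% of LGE, and 11.4% and 12.8% of CTX. Both CTX samples were below every eminence sample, a mean difference of -5.08 percentage points (exact two-sided permutation test over 28 arrangements, p = 0.0357, the smallest the design allows). Without thinning the CTX shares were 44.1% and 36.7% and overlapped those of the eminences, and the difference fell to -4.04 points (exact permutation p = 0.286). CGE differed from MGE and LGE by -1.35 points (exact permutation over 15 arrangements, p = 0.733, where the smallest possible is 0.0667).

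The Sp8 start site had a count in 14.4% and 17.1% of CGE nuclei, 18.6% and 17.3% of MGE, 18.1% and 20.6% of LGE, and 16.7% and 32.8% of CTX after thinning. Both CGE values were lower than every MGE and LGE value, a mean difference of -2.89 points at the smallest p the design allows (exact permutation p = 0.0667), which cannot pass 0.05. With nuclei thinned to fewer fragments the difference was -1.62 points (exact permutation p = 0.133), and without thinning -3.20 points, with overlapping samples (exact permutation p = 0.267). CTX replicate 1 lay within the eminence range and CTX replicate 2 above it, with a mean difference of 7.05 points (exact permutation p = 0.214). In CPM, CTX replicate 1 was above every eminence sample at this element (110 against at most 108). Without thinning the CTX shares were 52.9% and 67.1%, above every eminence sample, and the difference was 15.5 points (exact permutation p = 0.0357).

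At the Htr3a start site a count was found after thinning in few eminence nuclei, which does not show the others to be closed. The shares were 1.29% and 0.488% in CGE, 2.25% and 1.499% in MGE, 1.22% and 0.689% in LGE, against 3.53% and 6.26% in CTX. The CTX values were higher than every eminence value, by 3.65 points on average (exact permutation p = 0.0357). Before thinning the shares were 5.28% (95% Clopper-Pearson interval 4.61% to 6.02%) and 1.94% (1.56% to 2.39%) in CGE and 19.6% (18.4% to 20.8%) and 20.1% (18.97% to 21.2%) in CTX, intervals that cover counting error only. Endothelial-like nuclei, a non-neuronal class taken as a background, had thinned shares of 0.466% of 56 nuclei in MGE replicate 1, 0.484% of 77 in LGE replicate 1 and 1.22% of 290 in CTX replicate 2, whose 307 nuclei of this class split at Leiden resolution 1 into 90 endothelial-like and 217 mural or mesenchymal-like nuclei. These rest on few nuclei and none from CGE, and the eminence shares in CGE and LGE overlapped their range. These nuclei had median depths of 32266, 40761 and 13045 counts before thinning, against 15875 and 16245 over all nuclei of the CGE samples.

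Of the 16 tested elements, edgeR called 1 higher in CGE than in MGE, Prox1_e21, and 0 lower. Of all 68274 regions, 9.4% were called in this comparison in either direction (5.84% higher and 3.56% lower in CGE). Whether called or not, the log2 fold change was above 0 at 2 of the 16. The median log2 fold change of the 16 was -0.39, against 0.00 over all regions. Of the 16, 7 had an unadjusted p under 0.05 (edgeR), beside 16234 of all 68274 regions. DESeq2 called 5 of the 16 for CGE against MGE, beside 10693 of all 68274 regions. The 5 were Prox1_e21, higher, and Prox1_e16, Prox1_e20, Prox1_e29 and Htr3a_e07, lower. With the replicate number as a block, edgeR called Prox1_e20 (-1.08, adjusted p = 0.0266) and Htr3a_e11 (-1.25, adjusted p = 0.0388) lower in CGE and no longer called Prox1_e21 (adjusted p = 0.0556). Between CGE and LGE 0 of 16 were called (edgeR), where 0.00293% of all regions were called. An unadjusted p under 0.05 was found for 3 of the 16 (edgeR), beside 8247 of all 68274 regions. DESeq2 called 1 of the 16, Htr3a_e16, beside 2754 of all regions. Between LGE and MGE 5 of 16 were called, 4 of them lower in LGE, beside 10.6% of all regions (5.79% higher and 4.86% lower), and in CTX against the eminences 5 of 16, 3 higher and 2 lower, beside 14.9% (9.49% higher and 5.39% lower). In 1 fit of all 8 samples edgeR called 0 of the 16 for CGE against MGE and for LGE against MGE. That fit called 222 and 474 of all 68274 regions, so the calls fell over all regions as well. The 3 eminence comparisons share samples, so their calls are not separate evidence.

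**Figure D2:**
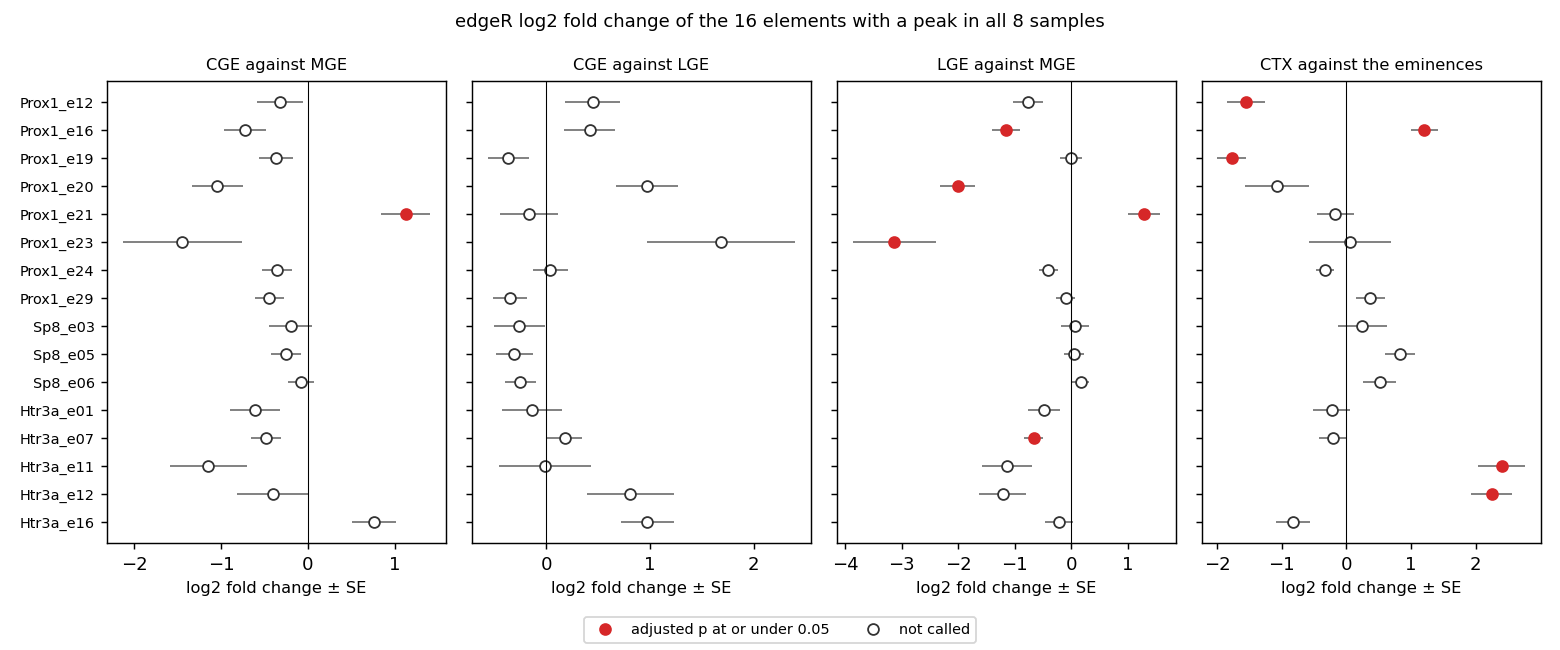
Log2 fold change with its SE from edgeR for the 16 elements with a peak in all 8 samples (rows, in chromosomal order within each locus) in 4 comparisons, filled where the adjusted p is at or under 0.05. Prox1_e21 is the element called for CGE against MGE, none is called for CGE against LGE, and Htr3a_e11 and Htr3a_e12 are the farthest to the right for CTX.

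Within Prox1, the elements that edgeR called between regions in the main fits lay in the gene body. Prox1_e20, which overlaps an exon and is centred 16092 bp downstream of the start, had 16.04 and 19.2 CPM in MGE, 7.17 and 10.6 in CGE, 3.60 and 5.20 in LGE, and 6.30 and 1.83 in CTX. MGE was above all other samples and CGE above LGE, with no overlap between the eminences. LGE fell below MGE by 2.01 on the log2 scale (SE 0.30, edgeR adjusted p = 0.00724), while CGE against MGE (-1.04 ± 0.29, edgeR adjusted p = 0.0678) and CGE against LGE (0.97 ± 0.30, edgeR adjusted p = 0.233) were not called. With the replicate block CGE was called lower than MGE, as given above. The peaks over it covered 3118 and 3233 bp in MGE but 665 and 1214 bp in LGE, and with an offset for covered length the log2 fold change of LGE against MGE was -0.21 (edgeR adjusted p = 0.766). Here and below, offset values are to be read beside the medians of the same fits over all regions. These were 0.17 for LGE against MGE, -0.10 for CGE against MGE and -0.059 for CTX. The call for LGE held when any single eminence sample was left out (edgeR adjusted p from 0.00714 to 0.0296) and was lost in the fit of all 8 samples (edgeR adjusted p = 0.18).

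Prox1_e21, centred 10907 bp downstream, ran the other way, with 3.29 and 2.99 CPM in CGE, 3.30 and 3.48 in LGE, 1.37 and 1.36 in MGE, and 1.64 and 2.52 in CTX. CGE and LGE were alike and each lay above both MGE samples. LGE exceeded MGE by 1.29 ± 0.29 (edgeR adjusted p = 0.0275) and by 1.10 with the covered-length offset (edgeR adjusted p = 0.0283), though the call was lost when any single eminence sample other than MGE replicate 2 was left out (1.22 to 1.31, edgeR adjusted p from 0.0595 to 0.118). CGE exceeded MGE by 1.12 ± 0.28 (edgeR adjusted p = 0.0476), but this call was lost with the offset (0.60, edgeR adjusted p = 0.343) and when any single eminence sample was left out (1.07 to 1.14, edgeR adjusted p from 0.0632 to 0.225).

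Prox1_e23, centred 4840 bp downstream of the start, had its lowest levels in LGE, with 0.144 and 0.936 CPM from 17 and 70 counts. It had 4.25 and 5.02 CPM in MGE, 1.67 and 1.89 in CGE, and 2.25 and 1.06 in CTX. LGE was below MGE by 3.13 on the log2 scale (SE 0.74, edgeR adjusted p = 0.0346), and by 0.89 with the covered-length offset (edgeR adjusted p = 0.18), where the LGE replicate 1 peak was 31 bp long. The call was also lost without MGE replicate 1 (edgeR adjusted p = 0.105), MGE replicate 2 (edgeR adjusted p = 0.0872) or CGE replicate 2 (edgeR adjusted p = 0.0516). Prox1_e16, centred 31317 bp downstream, had 11.3 and 12.46 CPM in CTX, 8.68 and 7.51 in MGE, 4.91 and 5.36 in CGE, and 3.34 and 4.06 in LGE, an order with no overlap between regions. CTX exceeded the eminences there by 1.204 ± 0.21 (edgeR adjusted p = 0.0126) and LGE was below MGE (-1.15 ± 0.24, edgeR adjusted p = 0.024), and neither call held with the covered-length offset (0.91, edgeR adjusted p = 0.101, and 0.09, edgeR adjusted p = 0.925). Leaving out CTX replicate 1 gave 1.31 for the CTX difference, and leaving out replicate 2 gave 1.12. The LGE call was also lost without MGE replicate 1 (edgeR adjusted p = 0.0713), LGE replicate 1 (edgeR adjusted p = 0.141) or LGE replicate 2 (edgeR adjusted p = 0.0527).

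Prox1_e19, centred 21654 bp downstream, was the Prox1 element most clearly shared by the eminences. It had 10.6 and 12.496 CPM in CGE, 13.9 and 14.7 in MGE, 13.6 and 15.2 in LGE, and only 3.93 and 3.60 in CTX. CTX was lower by 1.77 on the log2 scale (SE 0.22, edgeR adjusted p = 0.00486), by 1.72 without CTX replicate 2 and by 1.79 without CTX replicate 1, and by 1.09 with the covered-length offset (edgeR adjusted p = 0.0135). Prox1_e12, centred 42167 bp downstream, was also lower in CTX, with 3.69 and 2.74 CPM against 6.07 to 12.96 in the eminences (-1.54 ± 0.29, edgeR adjusted p = 0.016), but not with the offset (-0.51, edgeR adjusted p = 0.301) or without CGE replicate 2 (-1.46, edgeR adjusted p = 0.0535). The value with CTX replicate 2 alone was -1.74, and with replicate 1 alone -1.35. Upstream of the gene, in Prox1os, Prox1_e29 had 13.9 and 12.98 CPM in CGE, 16.2 and 18.6 in MGE, 17.2 and 15.8 in LGE, and 14.48 and 24.3 in CTX, and was called in 0 of the 4 comparisons (edgeR adjusted p from 0.151 to 0.794).

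**Figure D3:**
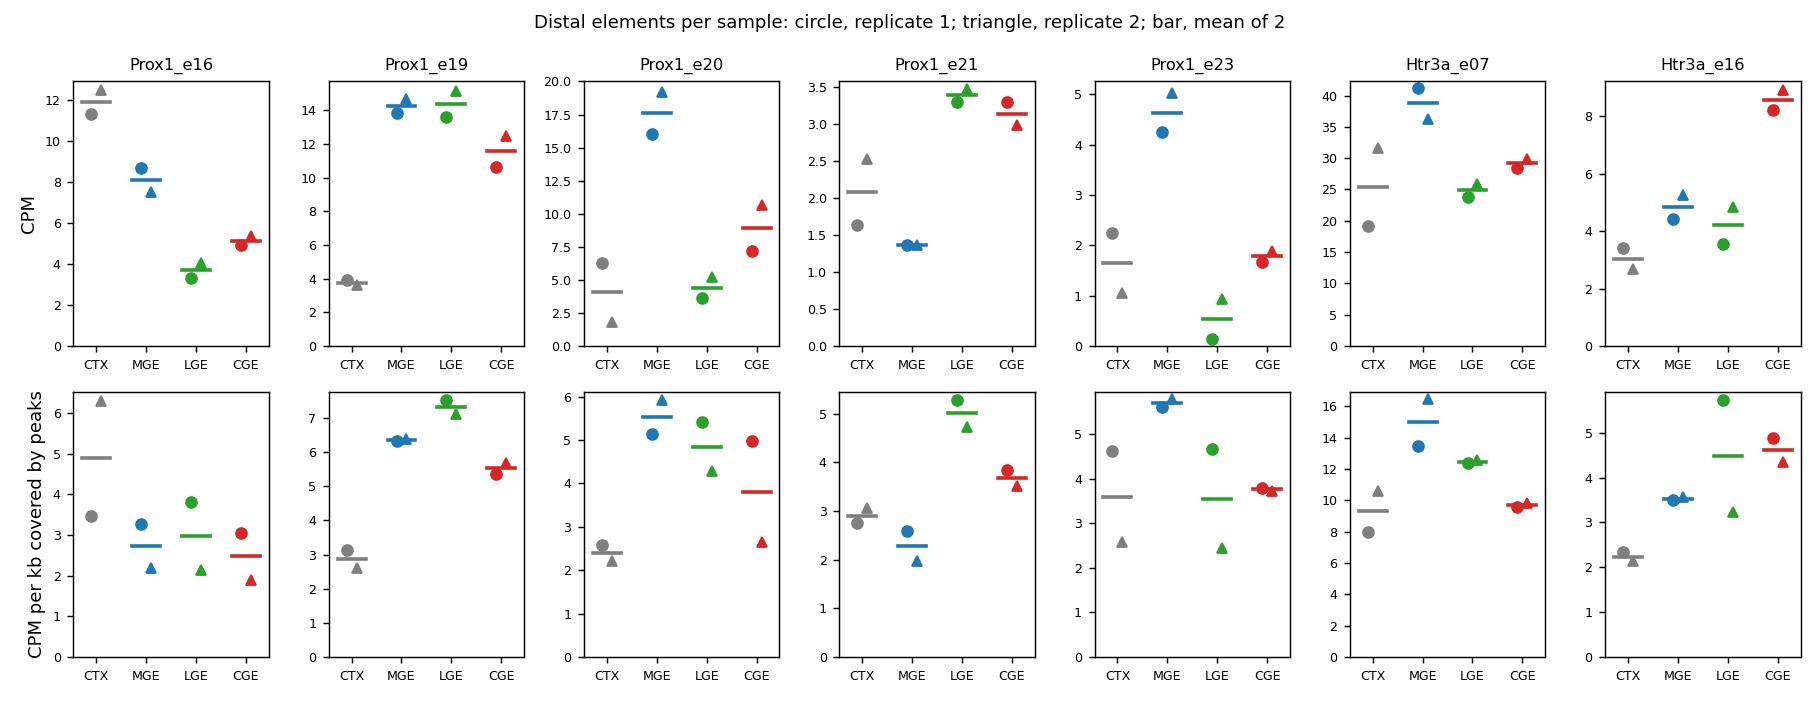
Level by region of 7 elements away from the start sites, in CPM (upper row) and in CPM per kilobase covered by peaks (lower row), on linear axes from 0, with a circle for replicate 1, a triangle for replicate 2 and a bar for the mean of 2. In CPM MGE is highest at Prox1_e20 and Prox1_e23 and CGE at Htr3a_e16; per covered kilobase the regions overlap at Prox1_e16, and CTX stays lowest at Prox1_e19.

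The Sp8 locus had no called element in edgeR. Besides the start-site domain it held Sp8_e06, which overlaps the 3′ end of the gene, with 38.5 and 35.4 CPM in CGE, 34.3 and 39.8 in MGE, 40.8 and 43.6 in LGE, and 34.1 and 71.5 in CTX. Sp8_e03, centred 34615 bp upstream, had 4.91 and 3.41 CPM in CGE, 4.33 and 4.69 in MGE, 5.09 and 4.45 in LGE, and 2.76 and 7.35 in CTX. CTX replicate 2 was the highest sample and CTX replicate 1 the lowest at both elements. Of the 3 shared Sp8 elements 0 were called in any comparison (edgeR), with 1 unadjusted p under 0.05, that of the start-site domain in CTX (0.83 ± 0.23, edgeR adjusted p = 0.0581). DESeq2 called that 1 (adjusted p = 0.0123), as did edgeR with separate scaling (0.87, adjusted p = 0.0306) and with the replicate block (0.78, adjusted p = 0.0473). The value rested on CTX replicate 2, since it was 1.25 without CTX replicate 1 (edgeR adjusted p = 0.00182) and 0.28 without CTX replicate 2 (edgeR adjusted p = 0.328).

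At Htr3a, the upstream element Htr3a_e12, whose centre lies 5403 bp before the start, followed the start site. It had 7.33 and 10.8 CPM in CTX, 2.98 and 2.69 in MGE, 2.96 and 1.60 in CGE, and 1.61 and 0.869 in LGE. Both CTX samples were above all others (2.24 ± 0.32, edgeR adjusted p = 0.00646), also with the covered-length offset (1.24, edgeR adjusted p = 0.0255), without CTX replicate 1 (2.53) and without CTX replicate 2 (1.93). The offset left the start site itself higher in CTX as well (1.70, edgeR adjusted p = 0.00772).

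The highest level in the Htr3a window was that of Htr3a_e07, centred 15742 bp downstream of the start and beyond the gene's 3′ end, in the gene model Gm32335. It had 41.2 and 36.3 CPM in MGE, 28.4 and 29.9 in CGE, 23.8 and 25.9 in LGE, and 19.1 and 31.6 in CTX. LGE fell below MGE by 0.66 (SE 0.17, edgeR adjusted p = 0.0438), a call lost with the offset (-0.28, edgeR adjusted p = 0.496) and without MGE replicate 1, either LGE replicate or CGE replicate 2 (edgeR adjusted p from 0.0612 to 0.22). It was also lost in the fit of all 8 samples (edgeR adjusted p = 0.316), with separate scaling (edgeR adjusted p = 0.0541) and with the replicate block (edgeR adjusted p = 0.0518). With the offset CGE was lower than MGE (-0.70, edgeR adjusted p = 0.0268, against -0.48 ± 0.17 and 0.124 without it).

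Htr3a_e16, which lies within Htr3b and 1936 bp from its start, was the element where both CGE samples stood highest. It had 8.23 and 8.91 CPM in CGE, 4.42 and 5.25 in MGE, 3.55 and 4.85 in LGE, and 3.397 and 2.67 in CTX, with no overlap between CGE and any other sample. The log2 fold changes were 0.76 ± 0.26 against MGE (edgeR adjusted p = 0.114) and 0.97 ± 0.26 against LGE (edgeR adjusted p = 0.18), so neither passed over all regions, though DESeq2 called the latter (adjusted p = 0.0423). Per covered kilobase it had 4.89 and 4.35 CPM in CGE, within the LGE range of 3.23 to 5.74. This element was singled out after its values were seen. Htr3a_e01, centred 50167 bp downstream of the start, had 4.01 and 5.95 CPM in CGE, 8.01 and 6.55 in MGE, 4.94 and 5.65 in LGE, and 4.13 and 5.36 in CTX, and was not called in any comparison (edgeR).

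The other 43 elements, 27 of Prox1, 5 of Sp8 and 11 of Htr3a, lacked a peak in some sample and were not tested. Their highest level in any sample was 0.0429 to 12.7 CPM with a median of 1.10, and 21 of them were a peak of a single sample. An element without a peak in a library has no count there, and its signal was not measured. The number of elements with a peak ran from 20 in LGE replicate 1 to 44 in MGE replicate 2, and differed between replicates of a region as much as between regions, for example 26 and 39 in CGE and 28 and 44 in MGE.

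A single element, Prox1_e01, centred 93845 bp downstream of the start, had a peak in both CGE samples and in neither MGE sample, at 0.802 and 0.928 CPM, but it was also a peak of CTX replicate 1 (2.32 CPM) and LGE replicate 2 (0.374 CPM). Sp8_e04 and Htr3a_e06 had peaks in both MGE and both CGE samples and in no LGE or CTX sample, with 0.827 and 1.25 CPM in CGE and 0.932 and 2.52 in MGE for Sp8_e04, and 1.08 and 1.44 in CGE and 1.22 and 1.47 in MGE for Htr3a_e06. Htr3a_e13, 18229 bp upstream of the start, came close to being shared, with 12.7 and 11.8 CPM in MGE, 6.16 and 5.25 in CGE, 3.87 and 3.18 in LGE, and 0.916 and no peak in CTX. Prox1_e35, whose centre is 49783 bp before the start, belonged mostly to CTX replicate 1, with 12.3 CPM there against 2.25 in CTX replicate 2 and at most 1.22 in any eminence sample. These 5 elements carry no test, and Sp8_e04 and Htr3a_e06 were singled out after their values were seen.

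**Figure D4:**
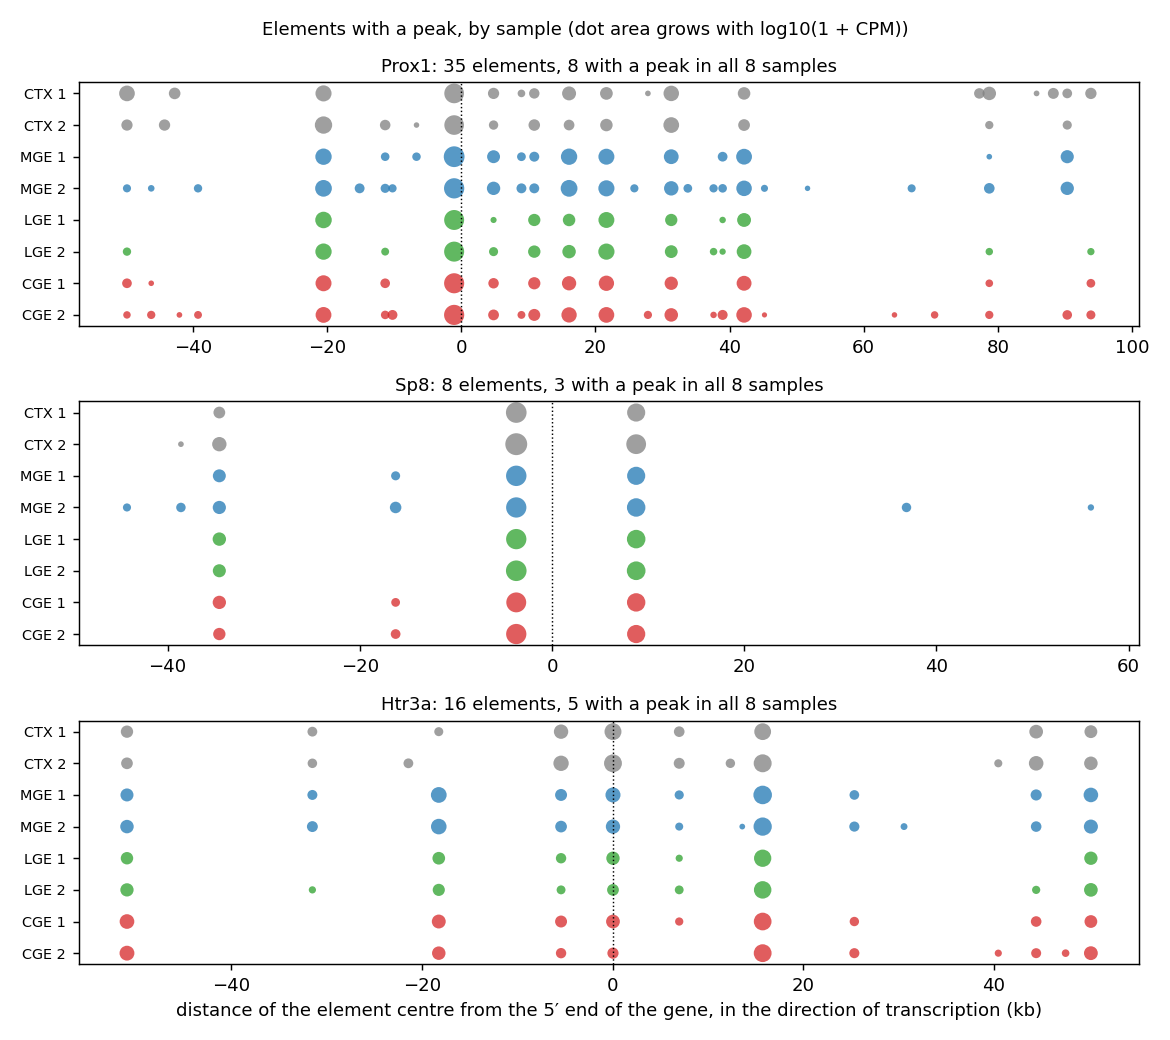
Elements with a peak in each sample (rows) by the distance in kb of their centre from the 5′ end of Prox1, Sp8 and Htr3a, with dot area growing with log10(1 + CPM) and the dotted line at the start. Prox1 has 35 elements of which 8 are in all samples, with a row of intronic elements downstream of the start; Sp8 has 8 and 3, and Htr3a 16 and 5.

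Nuclei were also grouped by class, from clusters built without any region of the 3 loci, and levels were taken per sample and class with no test. GABAergic neuron-like nuclei were mostly of cluster c0 in MGE and of c2 and c8 in LGE and CGE. Progenitor-like nuclei were mostly of c1 in MGE, and in LGE and CGE of c3 in replicate 1 and c5 in replicate 2. The top 10 genes of c1 included Nkx2-1 and also Gpr17 and Sox10, known from the oligodendrocyte lineage, so the progenitor-like levels of MGE are not given. The top 10 genes of c1, c3 and c5 held no progenitor marker, and their name rests on 4, 3 and 5 raised markers of 10. Those of c2 and c8 held no GABAergic neuron marker, and their name rests on 5 and 5 raised markers of 9. Prox1_e20 had 13.2 and 17.8 CPM in GABAergic neuron-like nuclei of CGE against 5.10 and 7.04 in progenitor-like nuclei, and 5.51 and 9.48 against 3.05 and 3.80 in LGE. The neuron-like nuclei of MGE had 17.8 and 15.3 CPM. In this class the MGE and CGE samples thus overlapped at Prox1_e20, whereas the pooled samples did not. At Leiden resolution 1 an unnamed cluster (c13) held 590 and 248 nuclei of LGE and 397 and 63 of CGE. Its nuclei had a median of 2.55 times the median counts of their sample, and whether they were doublets was not tested. At that resolution the log2 ratios of neuron-like to progenitor-like nuclei at Prox1_e20 were 1.09 to 1.67 in LGE and CGE. In the main clustering they were 0.85 to 1.38.

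Prox1_e29 was the opposite, lower in the GABAergic neuron-like than in the progenitor-like nuclei of each LGE and CGE sample, with a log2 ratio of -0.82 to -0.66. Htr3a_e07 and Htr3a_e16 were higher in the neuron-like class of each LGE and CGE sample, with log2 ratios of 0.80 to 0.97 and 0.58 to 1.18. Htr3a_e16 reached 10.9 and 13.3 CPM in CGE neuron-like nuclei against 5.82 to 7.58 in those of MGE and LGE. At the start sites the log2 ratios in LGE and CGE were 0.07 to 0.35 for Prox1, 0.09 to 0.51 for Sp8 and -0.51 to 0.45 for Htr3a. At Sp8 the highest neuron-like levels were those of LGE, with 112 and 139 CPM against 82.5 and 106 in CGE and 108 and 91.1 in MGE.

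**Figure D5:**
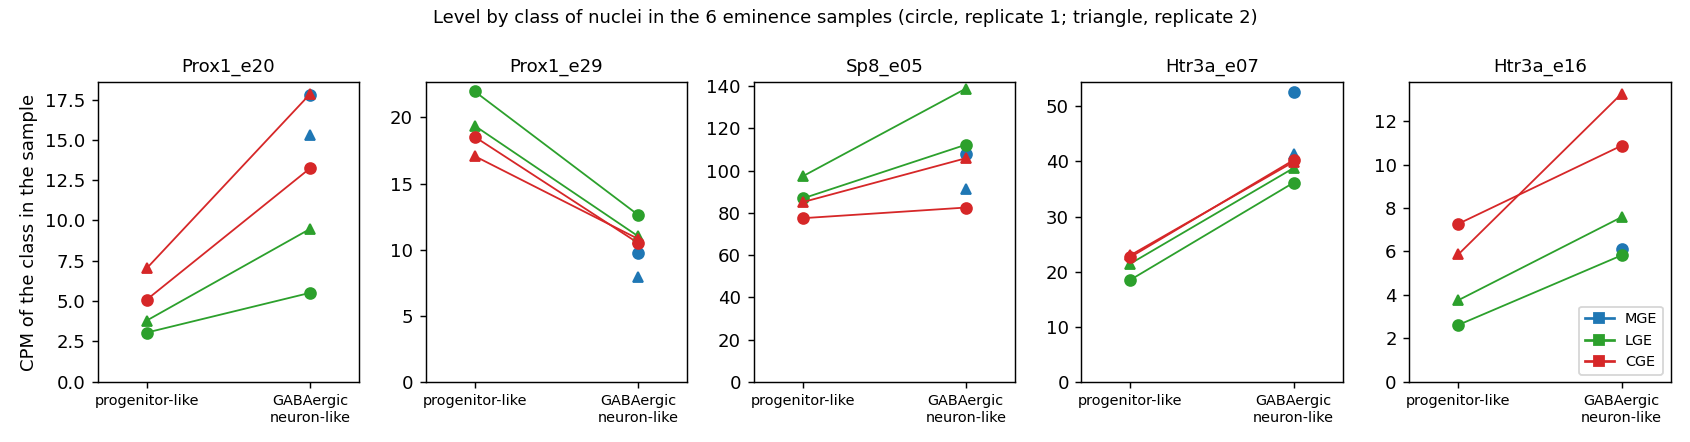
Level in CPM on linear axes from 0 of 5 elements in progenitor-like and GABAergic neuron-like nuclei, with a line for each LGE and CGE sample and the MGE samples in the neuron-like class only. In the LGE and CGE samples Prox1_e20 is higher and Prox1_e29 lower in the neuron-like class, and Htr3a_e16 is highest in CGE neuron-like nuclei at 10.9 and 13.3 CPM.

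The CTX signal at the Htr3a start site was in several classes. Glutamatergic neuron-like nuclei had 20.9 and 31.1 CPM in the CTX samples, against 8.15 and 5.37 in LGE and 5.67 and 2.25 in CGE. The nuclei of CTX replicate 2 in this class were of cluster c4, as were those of LGE and CGE, whereas CTX replicate 1 had its own clusters c7 and c9. At Leiden resolution 1 a glutamatergic neuron-like cluster held 540 nuclei of CTX replicate 2, 442 and 128 of LGE and 286 and 34 of CGE. Another held 6 of CTX replicate 2 against 466 of CGE replicate 2, and an unnamed cluster 3 against 666. A shared cluster c4 therefore does not show that these nuclei were alike. The unnamed clusters c6 and c11 of CTX replicate 2 had 30.9 and 40.0 CPM. The same clusters carried the high Sp8 start-site level of that library, with 222 and 192 CPM, against 146 in its glutamatergic neuron-like nuclei and 77.7 in its endothelial-like nuclei. The 137 GABAergic neuron-like nuclei of CTX replicate 1 had a median of 3515 counts, too shallow for levels of single elements.

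Summed over the gene body and 2000 bp upstream and scaled to the counts of all genes, Prox1 had 128 and 136 CPM in CGE, 181 and 159 in MGE, 118 and 123 in LGE, and 96.7 and 94.1 in CTX. The order MGE, CGE, LGE, CTX was the same in both replicates, and Prox1 was not called (CGE against MGE -0.37 ± 0.13, edgeR adjusted p = 0.419; CTX against the eminences -0.46 ± 0.12, edgeR adjusted p = 0.0819). Sp8 had 41.4 and 76.5 CPM in CGE, 79.1 and 68.5 in MGE, 49.1 and 86.4 in LGE, and 47.3 and 288 in CTX, where replicate 2 stood apart. Its log2 fold change for CTX was 1.37 ± 0.54 (edgeR adjusted p = 0.229), 2.16 without CTX replicate 1 (edgeR adjusted p = 0.021) and -0.34 without CTX replicate 2. Htr3a had 6.91 and 2.25 CPM in CGE, 10.8 and 7.90 in MGE, 5.76 and 3.74 in LGE, and 21.7 and 33.6 in CTX, and was called in CTX (2.31 ± 0.37, edgeR adjusted p = 0.0207, and 0.054 without MGE replicate 1), where 4.3% of 17333 genes were called in either direction (3.41% higher and 0.888% lower); with the covered-length offset it was not (1.39, edgeR adjusted p = 0.14). With CTX replicate 2 alone the value was 2.56, and with replicate 1 alone 2.04. Of the 3 genes 0 were called between any pair of eminences (edgeR), where 0.111% of 17121 genes were called for CGE against MGE (0.0409% higher and 0.0701% lower), 0.0117% for CGE against LGE and 0.117% for LGE against MGE (0.0292% higher and 0.0876% lower). Prox1 had an unadjusted p under 0.05 against MGE in CGE and LGE, and DESeq2 called it in the latter (-0.53, adjusted p = 0.00173), as it did in CTX (-0.43, adjusted p = 0.00117). By edgeR the CTX value of Prox1 was -0.52 with CTX replicate 2 alone (adjusted p = 0.119) and -0.37 with replicate 1 alone (adjusted p = 0.176). With the covered-length offset the log2 fold change of Prox1 was 0.14 for LGE against MGE and -0.27 for CGE against LGE. These values lay near the medians of the same fits over all genes, 0.19 and -0.29.

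Lists of genes known from the regional lineages were counted at the same level. Over all genes edgeR called 0.111% for CGE against MGE, 0.0117% for CGE against LGE and 0.117% for LGE against MGE. In CTX it called 3.41% of all genes higher and 0.888% lower. Of 14 CGE-lineage interneuron genes 13 were tested and 0 were called between CGE and MGE or between CGE and LGE (edgeR), with 3 and 5 at an unadjusted p under 0.05 and median log2 fold changes of 0.25 and 0.33, against -2.99e-05 and 0.00 over all genes. Of all 17121 genes, 1723 and 665 had an unadjusted p under 0.05 in these comparisons (edgeR). Nr2f1 and Nr2f2, the COUP-TF transcription factor genes of the caudal forebrain, had log2 fold changes of 0.92 ± 0.20 and 0.68 ± 0.33 against MGE and 1.73 ± 0.21 and 1.83 ± 0.34 against LGE, with edgeR adjusted p from 0.186 to 0.826. In CTX 1 of the 14, Sp9, was lower and 0 were higher, with 10 at an unadjusted p under 0.05 (edgeR) and a median log2 fold change of 0.29, against -0.02 over all genes. An unadjusted p under 0.05 (edgeR) was found in CTX for 3178 of all 17333 genes. Of 9 MGE-lineage genes 3, Nkx2-1, Lhx6 and Lhx8, were lower in CGE than in MGE and 0 higher, and 2, Nkx2-1 and Lhx6, were lower in LGE than in MGE and in CTX. Of 8 dorsal LGE and olfactory interneuron genes 0 were called between any eminences, while in CTX Sp9, Gsx2 and Th were lower and Tshz1 higher. Of 7 cortical genes 4, Emx1, Emx2, Neurog2 and Neurod6, were higher in CTX, with 0 lower. Of 5 LGE genes 0 were called between eminences and 1, Gsx2, was lower in CTX.

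By the correlation of log2(CPM + 1) over the 8 samples, the genes with no shared peak whose pattern was most like that of a member were Zfp41, Bpifb1, Ecel1, Cmklr1 and Sp9 for Prox1 (Pearson r from 0.973 to 0.986), Mrpl3, Zic2, Ncaph, Cytl1 and Mroh1 for Sp8 (0.961 to 0.990), and Gm35549, Vwf, Vsx1, Aqp1 and Angptl4 for Htr3a (0.964 to 0.980). The 8 points share 4 regions and their depths, so these values are a description only.

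Counts over all peaks that hold a factor's motif, scaled to the counts of all motifs, were not called for PROX1 or SP8. The PROX1 motif had 12.49 and 11.5 CPM in CGE, 10.6 and 11.6 in MGE, 5.51 and 9.99 in LGE, and 14.8 and 13.04 in CTX. The SP8 motif had 5493 and 6383 CPM in CGE, 3978 and 6341 in MGE, 4514 and 5775 in LGE, and 5028 and 5293 in CTX. Of the 579 motifs 0 were called in any comparison (edgeR), with 17, 60, 25 and 126 at an unadjusted p under 0.05 for CGE against MGE, CGE against LGE, LGE against MGE and CTX, and DESeq2 called 7, 14, 5 and 82, neither PROX1 nor SP8 among them. The percentages called by edgeR were 0% in all 4.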

How the data were processed

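Single-nucleus ATAC-seq was measured in 8 samples of wild-type mouse forebrain, with Cell Ranger ATAC 1.2.0 and GRCm38/mm10 named in the submitters' processing notes. No source used here names the aligner. The deposited values are raw counts per peak and nucleus, made by the authors from peaks called in each sample, and most are even because both ends of a fragment count. Peaks overlapping by 1 bp or more were merged over the samples and counts summed. Genes were summed over the body and 2000 bp upstream (GENCODE, GRCm38), for 21911 protein-coding genes. Counts per sample were tested with edgeR 4.0.16 (quasi-likelihood, TMM, filterByExpr), with p-values adjusted by Benjamini-Hochberg over all features and calls at 0.05 or less. Eminence comparisons used 6 samples, and CTX against the mean of the eminences all 8. Alternatives were DESeq2 1.42.0, other scaling and filters, an offset for peak length, a replicate block and each sample left out. Nuclei were clustered (30 components, Leiden 0.5, leidenalg 0.10.2) without the 3 loci and named from markers. No doublet caller was run. Shares of nuclei were taken after thinning to 2500 fragments from all peaks of the sample. The edgeR fits of CGE against MGE and of CTX against the eminences were run on simulated counts with a single fixed spread. The other steps were not simulated. Depth differed between samples (77387940 to 138873845 counts), which limits weak elements most, and unshared peaks were not tested. Described singly were start-site elements, called elements, the 2 other elements per locus with the highest mean CPM, and those with peaks in both CGE and neither MGE sample. The members and lists were chosen with earlier results of these data known.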

Additional observations from a re-analysis of the deposited data

How the results depend on the processing

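Counts of calls depended on the method. Regions called were 6421, 2, 7269 and 10160 for CGE against MGE, CGE against LGE, LGE against MGE and CTX against the eminences, 10693, 2754, 11404 and 15780 by DESeq2, and 3472, 826, 4423 and 6260 with the covered-length offset. One fit of all 8 samples gave 222, 0 and 474 for the eminence comparisons. CGE against LGE had 0 with near and far regions scaled separately or with a replicate block. Genes called were 19, 2, 20 and 745, by DESeq2 580, 122, 597 and 2594, and with the offset 0, 1, 1 and 10. With peaks near start sites they were 10, 2, 13 and 207. In 1 fit of all 8 samples 0 genes were called for CGE against LGE. DESeq2 called 7, 14, 5 and 82 motifs against 0 by edgeR. Of the 16 elements, those called for CGE against MGE numbered 1, and 0 with all 8 samples, DESeq2 size factors or separate scaling, 5 by DESeq2 and 2 with the block. For CGE against LGE DESeq2 called 1, for LGE against MGE all 8 samples gave 0 and the offset 1, and for CTX the offset gave 3.

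Leaving out each sample in turn gave 1960 to 9237, 0 to 490, 3393 to 9140 and 4274 to 17986 regions, 5 to 225, 2 to 16, 7 to 127 and 230 to 1832 genes, 0 to 5 motifs in CTX, and 0 to 2, 0 to 1, 1 to 4 and 4 to 10 elements. The direction of small log2 fold changes was not stable over the samples left out. For CGE against LGE these ran from -0.036 to 0.12 at Prox1_e24, -0.79 to 0.49 at Htr3a_e11, -0.71 to 0.30 for the Sp8 gene and -1.05 to 0.55 for the Htr3a gene. They ran from -0.85 to 0.031 for Sp8 in CGE against MGE, -0.63 to 0.19 for Sp8 and -0.10 to 0.14 for Sp8_e05 in LGE against MGE, and -0.34 to 2.16 for Sp8 in CTX. The SP8 motif ran from -0.11 to 0.61 for CGE against MGE, -0.30 to 0.43 for LGE against MGE and -0.14 to 0.090 for CTX.

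With the covered-length offset the log2 fold change became 0.041 for Sp8_e05 and 0.16 for Sp8 in CGE against MGE, -0.021 for Prox1_e24 and -0.27 for Prox1 in CGE against LGE, and 0.088 for Prox1_e16, 0.14 for Prox1 and 0.43 for Sp8 in LGE against MGE. The medians of these offset fits were -0.10, -0.26 and 0.17 over all regions and -0.11, -0.29 and 0.19 over all genes. With peaks near start sites the log2 fold change became 0.094 for Htr3a in CGE against LGE and 0.0080 for Sp8 in LGE against MGE. Htr3a_e11 in CGE against LGE was 0.0029 with all 8 samples and 0.082 with separate scaling, and the SP8 motif in LGE against MGE was -0.0042 with total counts. Without thinning the share of nuclei at the Prox1 start site differed by -4.04 points in CTX and 0.0391 in CGE, and at Sp8 by 15.5 in CTX. The causes were not tested. Replicate differences correlated between regions at -0.0418 to 0.324, over 0.1 in 3 of 6 pairs of regions and highest between LGE and CGE. The main fits did not treat the numbers as a pairing, and these correlations cannot exclude a difference shared by replicate number. The share of odd counts split by number, with 9.54% to 10.4% in replicate 1 and 5.17% to 5.85% in replicate 2 of every region. The progenitor-like nuclei of LGE and CGE also did so, mostly c3 in replicate 1 and c5 in replicate 2. The part of this split in the results was not tested. With the replicate block 6451, 0, 7423 and 9335 regions, 3, 0, 3 and 546 genes and 2, 0, 5 and 6 elements were called, for CGE against MGE Prox1_e20 and Htr3a_e11 in place of Prox1_e21. Precision is limited by 2 samples per region.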
